A study of Rattus norvegicus with 10 samples.

Results

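The 6 sarcomeric myosin heavy chain genes Myh1, Myh2, Myh3, Myh4, Myh7 and Myh8 were followed in gastrocnemius muscle of rats on calorie restriction (CR). Members were the probe sets that the platform annotation pairs with 1 of these genes and no other. They numbered 11 of the 31099 probe sets in the table, for 6 of 14218 genes, with 5 for Myh1, 2 for Myh7 and 1 for each of the other genes. Another 3 probe sets that were annotated to a listed gene together with another gene were not counted as members.

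All rats were male Wistar, bought at 5 weeks of age and fed the AIN-93G powdered diet. Control rats received the full recorded daily intake, and the CR groups received 5, 10, 20 or 30% less, for 1 week or for 1 month. Muscle was taken after an overnight fast, also from the controls. Each of the 10 groups was a pool from 5 rats on 1 Affymetrix GeneChip rat genome array, so there were no replicate arrays and differences between rats of a group could not be seen. Groups follow the titles and the restriction labels, although for the 1-week control and the 1-week 5% CR array an additional description line names the other feeding. Where a result changed with these arrays exchanged or left out, the value is given beside it or in the closing section.

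Myosin heavy chain is the motor protein of the thick filament, and the isoform that a muscle fibre contains largely sets its speed of contraction. Myh7 encodes the slow (type I) isoform, and Myh2, Myh1 and Myh4 encode the fast isoforms IIa, IIx and IIb. Myh3 and Myh8 encode the embryonic and neonatal isoforms, which are replaced by adult isoforms as muscle matures and appear again in regenerating fibres. Rat gastrocnemius is a mixed muscle in which fast fibres prevail. In the RefSeq annotation, Myh3, Myh2, Myh1, Myh4, Myh8 and Myh13 follow each other in this order on chromosome 10, and Myh7 lies beside Myh6 on chromosome 15.

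All 10 skeletal muscle markers were above the filter on low signals, and 0 of 6 heart markers were, with a summed heart marker signal of 28.8 to 71.0 on all arrays. The deposited signals had a trimmed mean of 99.6 on the 1-week arrays and 86.4 on the 1-month arrays, so all were first scaled to a trimmed mean of 100. Values below are these scaled signals or their log2. Of the 11 members, 10 passed the filter (mean signal of at least 19.2) and were tested, and only Myh8 did not pass. Hybridization spikes are added in equal amount to every array and were read by 18 probe sets, some of them for the same spike. On the restricted 1-month arrays the mean of these probe sets was lower than on the 1-month control by 0.48 to 0.90 on the log2 scale. At 1 week the difference was 0.06 to 0.21. The 3 GAPDH control probe sets showed a log2 ratio to control of -0.61 to -0.30 at 1 month and of 0.09 to 0.17 at 1 week.

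**Figure D1:**
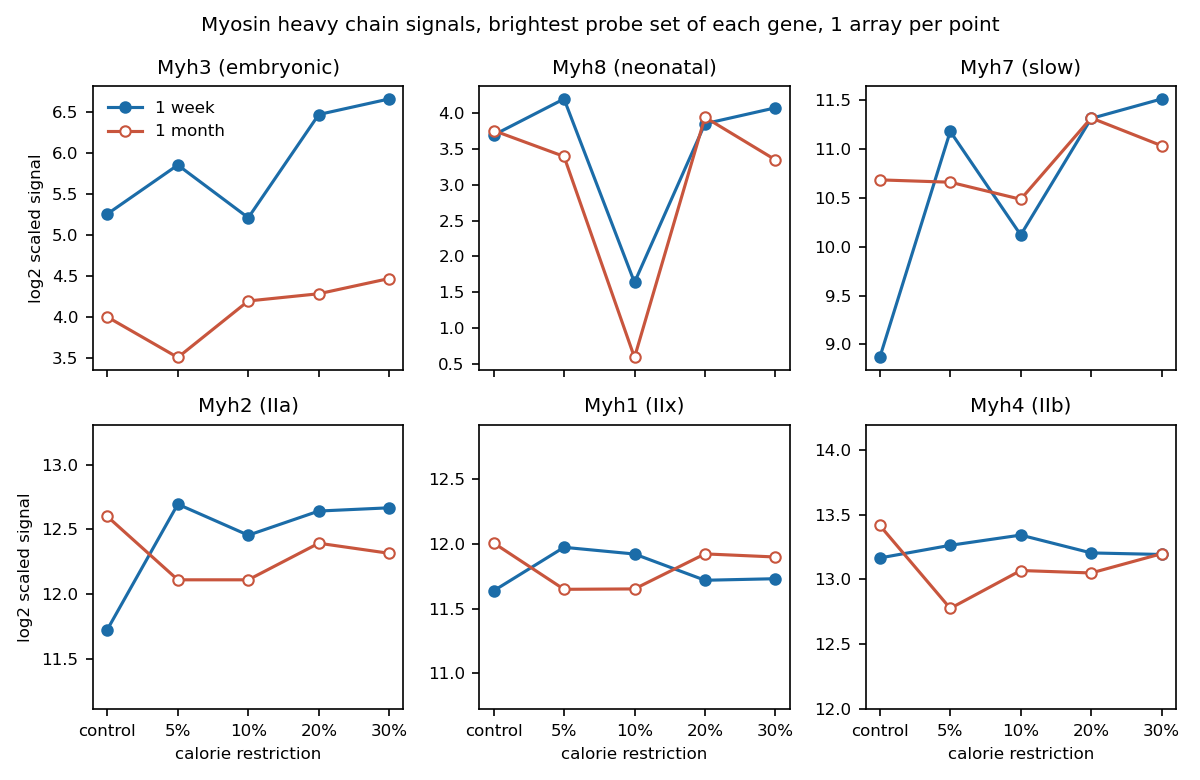
Log2 scaled signal (vertical axis, a range of its own in each panel) of the brightest probe set of each gene against the level of restriction (horizontal axis), with 1 array per point, 1 week filled and 1 month open. Myh3 separates the durations, with every 1-month array at or under 22.1 and every 1-week array at or over 37.0 in scaled signal, and Myh7 and Myh2 have their lowest value on the 1-week control array.

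Embryonic Myh3 was lower after 1 month than after 1 week at every feeding level. At 1 week its scaled signal was 38.2 in the control and 57.7, 37.0, 88.5 and 100.9 at 5, 10, 20 and 30% CR. At 1 month it was 16.0 in the control and 11.3, 18.3, 19.5 and 22.1 in the same order. The lowest 1-week array was above the highest 1-month array, so the groups did not overlap. Among the 10 members tested, Myh3 alone met this condition, against 4.31% of all probe sets tested. Averaged over feeding levels, Myh3 was 3.48-fold lower at 1 month (log2 -1.80 ± 0.21 SE, limma, adjusted p = 0.000111, n = 5 arrays per duration). Myh3 was the only member called for duration, 1 of 10, where 10.0% of all probe sets tested were called and 5.55% were called lower at 1 month. The 1-month signals were dim but above the tryptophan negative control probe sets, whose highest scaled signal on any array was 5.79. Their mean log2 of 4.09 lay under the filter value of 4.27, and the 1-week mean was 5.89. Myh3 thus passed the filter on low signals through its 1-week arrays, and the size of the fall rests on 1-month values under it. In bulk muscle, fewer fibres with a transcript and less of it per fibre cannot be told apart.

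The fall of Myh3 was between -1.94 and -1.71 with any single array left out, and it passed the test each time (adjusted p from 0.000108 to 0.000997). With 32 added to each signal before taking log2, which shrinks changes of dim genes, the estimate was -0.92. The 1-week and 1-month arrays were of different rats, and duration, age and any difference in array handling cannot be told apart.

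Neonatal Myh8 was dim and stayed below the filter. Its scaled signal was 13.0, 18.4, 3.11, 14.5 and 16.9 at 1 week, from control to 30% CR, and 13.5, 10.5, 1.51, 15.4 and 10.2 at 1 month. The 10% CR array was the lowest of its duration both times, at signals in the range of the negative controls, and the other arrays of the 2 durations overlapped. Without the filter, the estimate for Myh8 between 1 month and 1 week was -0.49 ± 0.66 (adjusted p = 0.806), an interval that also includes a fall as large as 1 on the log2 scale.

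Other genes of immature and regenerating muscle were lower at 1 month as well. Of 13 listed genes tested, 8 fell, 1 rose and 4 did not pass. Of all probe sets tested, 5.55% were called lower at 1 month and 10.0% in either direction. The list median was -0.31 against -0.01 for all probe sets tested. The list was chosen with earlier results of these data known, so it is no independent test. Igf2, a fetal growth factor, fell by 1.42 ± 0.10 (adjusted p = 2.9e-06). Mymk, which encodes the myoblast fusion protein myomaker, fell by 1.38 ± 0.25 (adjusted p = 0.00273). Dlk1 and Mest, imprinted genes of growing tissue, fell by 0.88 and 0.87. Chrna1, a subunit of the acetylcholine receptor, and Myog, the myogenic factor of differentiating myoblasts, fell by 0.74 and 0.62, and H19 and the embryonic light chain Myl4 by 0.31 each. Myf6, the myogenic factor that prevails in mature fibres, rose by 0.47 ± 0.07 (adjusted p = 0.00137). Runx1 (-0.23), Ncam1 (-0.06), Myod1 (-0.04) and Cdh15 (0.18) did not pass.

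With the 1-week control and 5% CR arrays both left out, 2 of 12 genes of this list fell and 1 rose, and Myh3 still passed. In the fit to all arrays, collagen genes of fibroblasts (3 of 7 fibroblast markers) and all 3 erythroid markers measured fell between 1 week and 1 month too. Col1a2 was at -0.90 and Hbb at -0.79, and 5.55% of all probe sets tested were called lower. With the 1-week control and 5% CR arrays both left out, 2 of 7 fibroblast markers and 2 of 3 erythroid markers fell. The part of these markers in the Myh3 result was not tested.

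**Figure D2:**
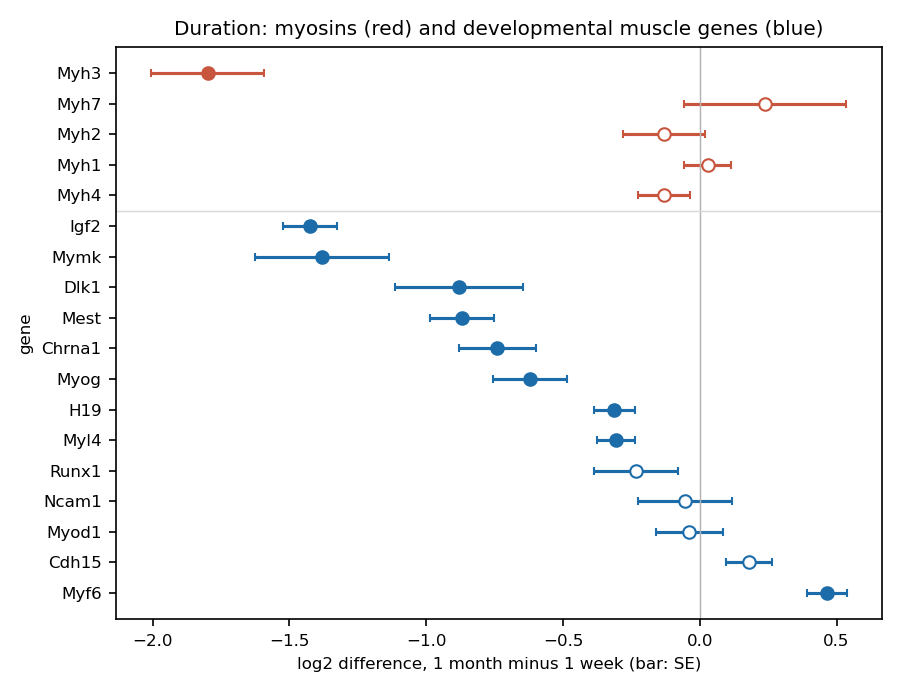
Log2 difference between 1 month and 1 week (horizontal axis, with bars for the SE) for the brightest tested probe set of 5 myosin genes (red) and 13 developmental muscle genes (blue), from limma over 10 arrays, with filled points where the adjusted p was under 0.05. Myh3 lies at -1.80, beyond Igf2 at -1.42 and Mymk at -1.38, while Myh7, Myh2, Myh1 and Myh4 lie between -0.13 and 0.24 with open points.

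Myh3 did not pass the test for restriction. Its slope was 0.35 ± 0.10 per 10 percentage points of restriction (limma, adjusted p = 0.0804). The highest value was that of 30% CR at both durations, 2.64 times the control at 1 week and 1.38 times the control at 1 month, while the lowest was that of 10% CR at 1 week and 5% CR at 1 month. The contrast of the 8 restricted arrays with the 2 controls was 0.45 ± 0.34 (adjusted p = 0.597).

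Slow Myh7 was low on the 1-week control array and at 2.39 to 7.56 times that level on the restricted 1-week arrays. The brighter probe set gave a scaled signal of 466 in the 1-week control and of 2325, 1114, 2549 and 2928 at 5, 10, 20 and 30% CR. Its 1-month signals were 1647 in the control and 1620.4, 1435, 2559 and 2100.1 in the same order. The 1-week control stood below all 9 other arrays, and at 1 month the control lay within the range of the restricted arrays. The dimmer probe set had the same low array, at 132 in the 1-week control, against a range of 356 to 999 for the other 1-week arrays and of 432 to 744 for the 1-month arrays. Both Myh7 probe sets were at least 2-fold above the control on all 4 restricted 1-week arrays, as were 0.49% of all probe sets tested. They measure the same transcript and rest on the same control array. With the 1-week control and 5% CR arrays exchanged, neither would meet this condition.

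Neither probe set passed a test across arrays. Restricted against control, the estimates were 1.18 ± 0.37 (limma, adjusted p = 0.13) and 1.31 ± 0.40 (adjusted p = 0.118), where 2.0% of all probe sets tested were called and 0 of 10 members. The dose trend was 0.44 ± 0.14 and 0.46 ± 0.16 per 10 percentage points (adjusted p = 0.134 and 0.173), with 2.0% of all probe sets called and again 0 of 10 members; without the 1-week 5% CR array the brighter probe set passed (0.53, adjusted p = 0.0396). The difference between the durations in the restricted against control contrast was -1.98 ± 0.55 and -2.21 ± 0.57 (adjusted p = 0.433 and 0.384), and both passed without the 1-week 10% CR array (-2.28 and -2.53, adjusted p = 0.0164 and 0.0053). This difference turned its sign with the 1-week control and 5% CR arrays exchanged (0.92 and 0.91, adjusted p = 0.956 and 0.958).

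The Myh7 estimate depended on single control arrays. Without the 1-week control it was 0.19 for the brighter and 0.21 for the dimmer probe set, and without the 1-month control, which leaves a single control array, it was 2.17 and 2.41 and passed the test (adjusted p = 0.0255 and 0.0161). With the 1-week control and 5% CR arrays exchanged, as their second description lines would have it, the estimates were -0.27 and -0.25 and did not pass.

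Genes of the slow fibre program had the same low array. Of 13 slow fibre genes tested, 12 were above the control on each restricted 1-week array, with a median log2 ratio of 1.77, 0.86, 1.90 and 2.13 at 5, 10, 20 and 30% CR. Of all probe sets tested, 24.0% were above the 1-week control on all 4 restricted arrays, and a share for each array was not computed. At 1 month the median ratios of the slow fibre genes were -0.24, -0.40, 0.01 and 0.01, and 1 to 7 of the 13 genes were above the control. Restricted against control, 0 of 13 passed (list median 0.71 against -0.01 for all probe sets tested), including Myoz2, a Z-disc protein of slow fibres (0.78 ± 0.28, adjusted p = 0.196), and Ankrd2, a stretch-responsive protein of slow muscle (0.91 ± 0.33, adjusted p = 0.198). Without the 1-month control array 6 of 13 passed as higher. For duration, Casq2, the calsequestrin of slow and cardiac muscle, and Tpm3, the slow tropomyosin, fell by 0.69 and 0.40. These were 2 of 13, where 5.55% of all probe sets tested were called lower at 1 month. With the 1-week control and 5% CR arrays both left out, 0 of 13 passed for duration. Myh7 did not pass for duration (0.24 ± 0.30 and 0.12 ± 0.34).

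The genes whose signal was most like that of the brighter Myh7 probe set over the 10 arrays were Tnni1 (Pearson r = 0.978, Spearman rho = 0.939), Tnnc1 (r = 0.970, rho = 0.964) and Ankrd2 (r = 0.969, rho = 0.939), among 9165 genes compared. Tnni1 and Tnnc1 encode the slow isoforms of troponin I and troponin C. Tnni1 gave 265 in the 1-week control, 537 to 1403 on the restricted 1-week arrays and 678 to 1107 on the 1-month arrays. These correlations are over arrays of the same pools and include the low 1-week control array in every case. A probe set annotated to both Myh7 and Myh6 had a restricted against control estimate of 1.34 ± 0.40 (adjusted p = 0.112), and the Myh6 probe set among the heart markers was below the filter.

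**Figure D3:**
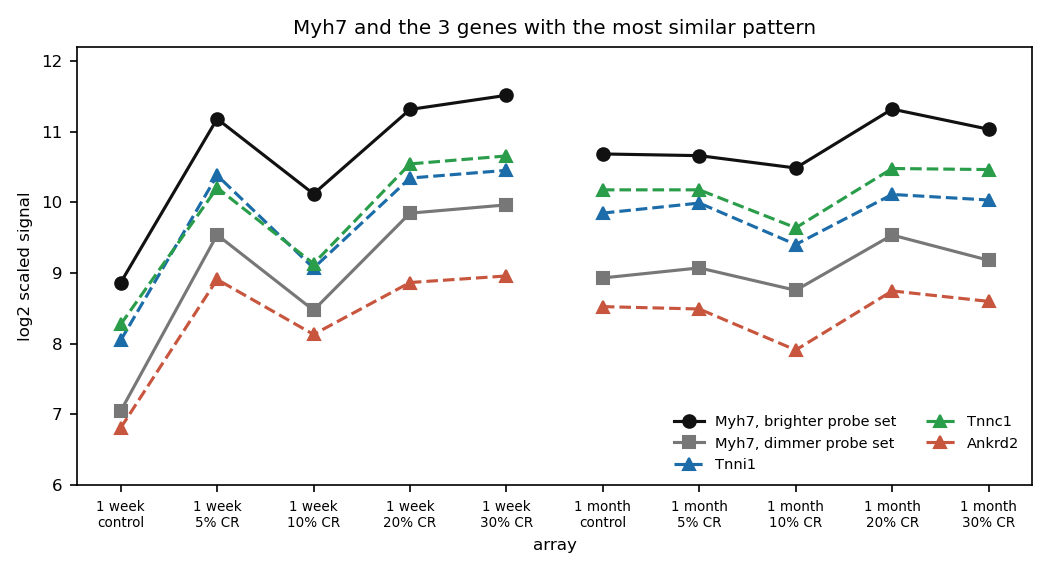
Log2 scaled signal (vertical axis) of both Myh7 probe sets and of Tnni1, Tnnc1 and Ankrd2 on the 10 arrays (horizontal axis), with 1 array per point and lines joining arrays of a duration. All 5 have their lowest point on the 1-week control and their next lowest 1-week point at 10% CR, and all 5 span less at 1 month.

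The fast myosins Myh2, Myh1 and Myh4 are neighbours on chromosome 10. Their promoters are shown because the brightest probe sets of the 3 genes had ratios of the same sign in each duration. Not all Myh1 probe sets had this pattern, and at 30% CR for 1 week 3 of 5 lay above the control. A link between the promoters and the signals was not tested. The 250 bases before the annotated start, from RefSeq on GRCr8, are given 5' to 3' for these genes and for Myh3, the neighbour with another pattern. Capitals mark a run of 20 bases that the 3 fast promoters share and a run of 8 bases that Myh3 holds too.
Myh2 promoter, chr10:52355489-52355738, + strand: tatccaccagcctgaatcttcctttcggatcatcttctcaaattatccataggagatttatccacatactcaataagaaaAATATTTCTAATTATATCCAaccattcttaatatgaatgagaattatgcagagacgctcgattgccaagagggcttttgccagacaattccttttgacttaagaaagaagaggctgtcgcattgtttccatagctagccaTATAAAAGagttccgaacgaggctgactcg
Myh1 promoter, chr10:52384662-52384911, + strand: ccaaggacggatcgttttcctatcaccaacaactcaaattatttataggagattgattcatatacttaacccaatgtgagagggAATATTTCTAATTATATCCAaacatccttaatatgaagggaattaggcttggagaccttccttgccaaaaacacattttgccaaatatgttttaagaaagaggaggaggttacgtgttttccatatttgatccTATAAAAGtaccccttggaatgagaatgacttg
Myh4 promoter, chr10:52421898-52422147, + strand: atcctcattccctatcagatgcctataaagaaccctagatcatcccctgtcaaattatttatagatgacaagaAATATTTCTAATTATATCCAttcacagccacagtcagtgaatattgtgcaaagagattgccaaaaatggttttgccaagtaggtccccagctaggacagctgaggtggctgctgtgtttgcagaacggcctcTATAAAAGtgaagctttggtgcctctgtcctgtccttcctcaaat
Myh3 promoter, chr10:52268935-52269184, + strand: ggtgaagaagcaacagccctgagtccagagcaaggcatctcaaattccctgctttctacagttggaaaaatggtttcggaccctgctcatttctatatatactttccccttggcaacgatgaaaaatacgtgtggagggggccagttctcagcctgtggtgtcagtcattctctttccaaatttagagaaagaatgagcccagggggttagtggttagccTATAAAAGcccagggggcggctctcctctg
The 20-base run began 170, 166 and 177 bases before the start of Myh2, Myh1 and Myh4. Searched on both strands, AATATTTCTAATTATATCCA was held by 5 of 33469 promoter windows of this length (0.0149%), which belonged to Myh1, Myh2, Myh4 and LOC102555216. The run TATAAAAG, a TATA box with its next bases, began 30, 33, 45 and 30 bases before the start of Myh2, Myh1, Myh4 and Myh3 and was held by 1.56% of windows. The MEF2 consensus, found in 2.96% of windows, was present once in Myh1 and once in Myh4, the CArG box consensus, found in 1.5%, once in Myh4, and CANNTG, the E-box, found in 65.5%, once in Myh3, in 2 places in Myh4 and in 3 places in Myh7. None of these sites overlapped the 20-base run. A match of letters is a description and not a binding site, and these letters were measured in no assay here.

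Myh2, the IIa isoform, was above the control on all restricted 1-week arrays and below the control on all restricted 1-month arrays. Its scaled signal at 1 week was 3385 in the control and 6632, 5617, 6392 and 6504 at 5, 10, 20 and 30% CR, which was 1.66 to 1.96 times the control. At 1 month it was 6210 in the control and 4422, 4420.2, 5379 and 5095 in the same order, or 0.712 to 0.866 of the control. The 1-week control was the lowest of the 10 arrays, and the 1-month control lay within the range of the restricted 1-week arrays. Restricted against control over both durations, Myh2 was at 0.26 ± 0.19 (limma, adjusted p = 0.574). By duration the estimates were 0.89 in the 1-week arrays and -0.37 in the 1-month arrays, each against a single control array and given without a test. The difference between these contrasts was -1.26 ± 0.17, with a limma adjusted p = 0.0686. For this difference 0% of probe sets were called, 0 of 15521 by limma, with 1121 at an unadjusted p under 0.05.

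The Myh2 difference between durations was -1.004 after quantile normalization and -1.16 after cyclic loess, and it passed in both (adjusted p = 0.0487 and 0.0363). It also passed without the 1-week 10% CR array (-1.31, adjusted p = 0.0053) and without the 1-month 5% CR array (-1.22, adjusted p = 0.0281). The difference was -0.045 with the 1-week control and 5% CR arrays exchanged (adjusted p = 0.997), and that of the brightest Myh1 probe set was -0.005 (adjusted p = 1.0). In the same exchange the restricted against control estimate of Myh2 was -0.35 (limma, adjusted p = 0.546). Without the 1-month control, which leaves a single control array, that estimate was 0.89.

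Myh4, the IIb isoform, differed little from the control at 1 week. Its scaled signal was 9186 in the 1-week control and 9827, 10386, 9439 and 9359 from 5 to 30% CR. At 1 month it was 10936 in the control and 7007, 8587, 8478 and 9395 in the same order. The 1-month control was the highest of the 10 arrays, and the 1-month 5% CR array the lowest. The estimates were -0.16 ± 0.11 for restricted against control (adjusted p = 0.574), -0.13 ± 0.10 for duration (adjusted p = 0.427) and -0.48 ± 0.18 for the difference between durations (adjusted p = 0.59). Without the 1-month control array the duration estimate was -0.23 and passed (adjusted p = 0.0484).

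Myh1, the IIx isoform, was measured by 5 probe sets that disagreed in part. The brightest gave 3187 in the 1-week control, 3375 to 4026 on the restricted 1-week arrays, 4120.4 in the 1-month control and 3214 to 3885 on the restricted 1-month arrays. All 5 were below the control on each restricted 1-month array, by 0.04 to 0.93 on the log2 scale. At 1 week all 5 were above the control at 5% CR, 4 of 5 at 10% CR and 3 of 5 at 20% and at 30% CR. Correlations between pairs of Myh1 probe sets over the 10 arrays were 0.35 to 0.94. None of the 5 passed any of the 4 comparisons, and the estimate of the brightest for restricted against control was -0.01 ± 0.11 (limma, adjusted p = 0.974).

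The control probe sets moved with the fast myosins at 1 month. Of the 10 members tested, 7 were above all 4 restricted arrays on the 1-month control, namely Myh2, Myh4 and all 5 Myh1 probe sets, against 28.4% of all probe sets tested. The 5 Myh1 probe sets measure the same gene, and all 7 rest on the same control array. The log2 ratios of Myh4 to the 1-month control were -0.64, -0.35, -0.37 and -0.22 at 5, 10, 20 and 30% CR, beside -0.61, -0.31, -0.36 and -0.30 for GAPDH and -0.90, -0.57, -0.70 and -0.48 for the spikes. The 1% of probe sets with the highest signal, 310 in number, had a median ratio of -0.31, -0.18, -0.15 and -0.11. After quantile normalization the Myh4 ratios were between -0.06 and 0.00, and those of Myh2 between -0.29 and -0.06. This method gives each rank the same value on every array, so it leaves the brightest probe sets little room to differ. By mean signal Myh4 was at a percentile of 99.9. After cyclic loess the Myh4 ratios were -0.441, -0.254, -0.288 and -0.165, and those of Myh2 -0.337, -0.423, -0.147 and -0.244. The part of this shift in the fast myosin ratios was not tested.

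At 1 week, where spikes and GAPDH differed less from the control, 6 of 10 members were below all 4 restricted arrays on the control array, against 24.0% of all probe sets tested. They were Myh2, Myh4, both Myh7 probe sets and 2 of the Myh1 probe sets. All of these except Myh7 were also above all restricted arrays on the 1-month control, which made 4 of 10 members with opposite directions, against 5.28% of all probe sets tested. Of these 4, 2 measure Myh1. All 10 members tested had a higher signal on the 1-week 5% CR array than on the 1-week control array. The share of all probe sets with this direction was not computed. Their median log2 signal was also higher, at 4.53 on the 1-week 5% CR array and 4.33 on the 1-week control array. With these arrays exchanged, no member would meet the 1-week condition, and none would have the opposite directions.

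**Figure D4:**
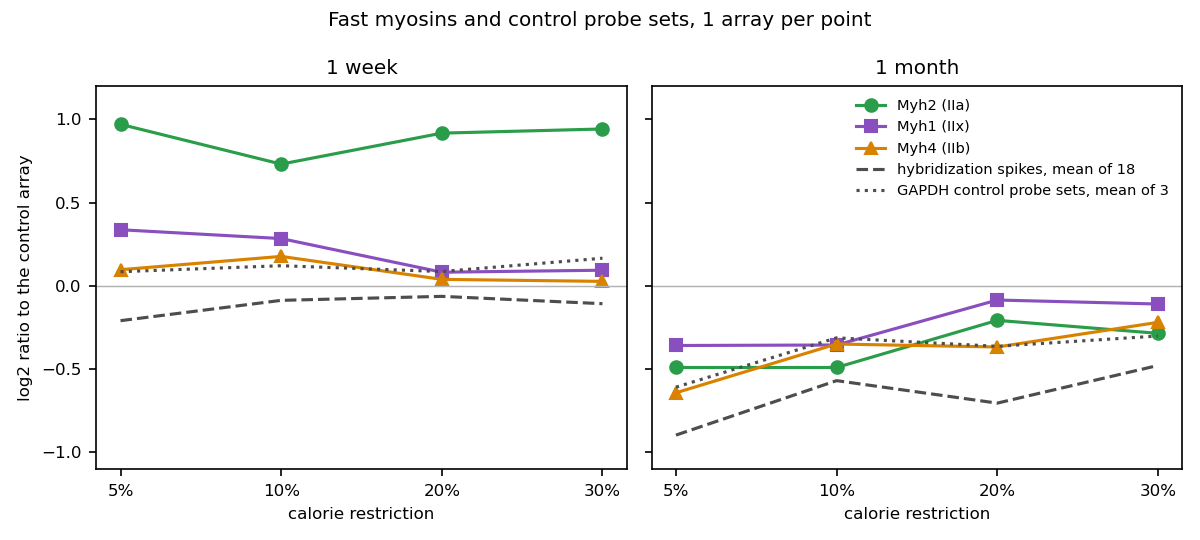
Log2 ratio of each restricted array to its control (vertical axis) by restriction level (horizontal axis) for the brightest probe set of Myh2, Myh1 and Myh4, with the mean of 18 hybridization spike probe sets (dashed) and of 3 GAPDH control probe sets (dotted), 1 array per point. At 1 week Myh2 lies at 0.73 to 0.97, apart from the other lines, and at 1 month all lines lie below 0, Myh4 close to GAPDH.

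Genes of the fast fibre program were close to the control at 1 week and lower at 1 month. The median log2 ratio of 15 fast fibre genes was 0.06 to 0.13 at 1 week and -0.62, -0.33, -0.35 and -0.25 at 1 month, from 5 to 30% CR, with 13 or 14 of 15 genes below the 1-month control. Of all probe sets tested, 28.4% were below the 1-month control on all 4 restricted arrays, and a share for each array was not computed. The median log2 signal over all probe sets was 4.41 on the 1-month control and 4.24 to 4.37 on the restricted 1-month arrays. Restricted against control, 0 of 15 passed. The smallest limma p was that of Mylk2, the myosin light chain kinase of skeletal muscle (0.18 ± 0.08, adjusted p = 0.304), followed by Tnni2, fast troponin I (-0.18 ± 0.11, adjusted p = 0.491). For duration, 0 of 15 passed with all arrays. Without the 1-month control array, 12 of 15 fell and 1 rose with duration, and in the 8 restricted arrays alone 11 of 15 fell. Most like Myh4 over the 10 arrays were Atp2a1, the calcium pump of fast fibres (r = 0.978, rho = 0.915), Pvalb, the calcium buffer parvalbumin (r = 0.971, rho = 0.903), and Mrpl51, a mitochondrial ribosomal protein (r = 0.968, rho = 0.903). Like Myh4, all were highest on the 1-month control array and lowest on the 1-month 5% CR array.

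Myh2 was most like Fhl1, a LIM protein of striated muscle (r = 0.972, rho = 0.952), Hspb7, a small heat shock protein (r = 0.925, rho = 0.903), and Lrrc14 (r = 0.909, rho = 0.830). Fhl1 gave 3781 in the 1-week control, from 5529.9 to 7051 on the restricted 1-week arrays, and 6640 in the 1-month control and 4690 to 6037 on the restricted 1-month arrays. Myh1 was most like Birc2 (r = 0.910), Cep170b (r = 0.899) and Dolk (r = 0.883). Myh3 was most like Rbm8a, a protein of the exon junction complex (r = 0.977), Fxyd1, a regulator of the sodium pump (r = 0.958), and Inka2 (r = 0.954), which separate the durations as it does. For Myh8, which was below the filter, they were Pcyt2 (r = 0.907), Setd4 (r = 0.896) and Rai1 (r = 0.888). All of these are descriptions over 10 arrays.

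Among the members, Myh7 and Myh2 were the pair of different genes with the highest Pearson correlation (0.80 and 0.82 for the 2 Myh7 probe sets). Myh3 and the brighter Myh7 probe set were at 0.22 over all arrays and at 0.78 once the mean of each duration was taken out, and Myh4 and Myh7 were at -0.03 and 0.04. The 1-week control array, low for Myh7 and Myh2, enters each value.

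Of the remaining parts of the thick filament, few changed. Of all probe sets tested, 10.0% were called for duration, 5.55% as lower at 1 month, and 2.0% were called in restricted against control. Of 9 light chain and light chain kinase genes tested, 2 fell with duration, Myl9, a smooth muscle light chain (-0.56 ± 0.10, adjusted p = 0.00225), and Myl4 (-0.31 ± 0.07, adjusted p = 0.0134), and 0 passed for restriction. Without the 1-month control array, 2 of 9 passed as higher with restriction, and with duration 5 of 9 fell and 1 rose. Of 11 genes of thick filament assembly, Mybph, a myosin-binding protein, fell with restriction (-0.96 ± 0.20, adjusted p = 0.023) and with duration (-1.21 ± 0.25, adjusted p = 0.00583), and Ttn, the giant sarcomere protein titin, fell with duration (-0.28 ± 0.07, adjusted p = 0.0149). With the 1-week control and 5% CR arrays exchanged, or without either control array, 0 of 11 passed for restriction. With both of these 1-week arrays left out, 1 of 11 fell and 1 rose with duration, and 1 of 9 light chain genes fell. Of the other myosin heavy chains, 4 were tested and 0 passed any comparison; nonmuscle Myh10 was at -1.15 ± 0.48 for the difference between durations (limma, adjusted p = 0.644).

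Among 22 regulators of myosin genes and fibre type, 3 fell in restricted against control. Of all probe sets tested, 2.0% were called in this contrast, 2.0% for the dose trend and 10.0% for duration. Maf, a transcription factor of the large Maf family, fell by 1.37 ± 0.25 (adjusted p = 0.012). Tead4, a factor of the TEA domain family active in myogenesis, fell by 0.86 ± 0.16 (adjusted p = 0.0111), and Rcan1, a regulator of calcineurin, fell by 0.69 ± 0.16 (adjusted p = 0.0386). With the dose of restriction Maf and Rcan1 fell by 0.53 and 0.28 per 10 percentage points (adjusted p = 0.00538 and 0.0136), and Ppargc1a, a coactivator of mitochondrial and slow fibre genes, rose by 0.27 ± 0.07 (adjusted p = 0.0496). With duration, Ppargc1b, its relative, fell by 0.51 and Eya1, a transcriptional cofactor in myogenesis, rose by 0.32. The list median was -0.11 in restricted against control, against -0.01 for all probe sets tested. With the 1-week control and 5% CR arrays exchanged, or without either control array, 0 of 22 passed in restricted against control. For the dose trend, 1 or 2 of 22 fell and 0 rose under each of these settings, and 0 of 22 passed with the 1-week control and 5% CR arrays both left out or in the 8 restricted arrays alone. With both arrays left out, 1 of 22 fell and 0 rose with duration, so that the call of Eya1 was lost.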

How the data were processed

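The authors pooled complementary RNA of each group, hybridized 1 Affymetrix rat genome array per pool and computed MAS5 values. The deposited values are 1 signal per probe set and array on a linear scale, without detection calls. An array gives no count, and 1 array per group limits the precision.

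Signals were scaled to a trimmed mean of 100 (2nd to 98th percentile), set to at least 0.1 and converted to log2. The 57 control probe sets were left out. Probe sets at or above the 50th percentile of mean log2 signal, 15521 in number, were tested with limma 3.58.1 in R 4.3.3 (lmFit, eBayes with trend), with the Benjamini-Hochberg method at 0.05. The model was also run on simulated data with independent noise for each probe set and array. These data held no shift of a whole array, so they could not test the effect of such a shift. Restricted against control and dose trend had duration as a factor, duration had the level as a covariate, and the difference between durations was the difference of 2 contrasts. Residual degrees of freedom were 7, and 6 for the difference. Errors come from arrays of different feeding, not from replicates of a group, so p-values measure the scatter of pools around the model.

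Of 31099 probe sets, 20832 carried 1 gene in the platform annotation, 436 several and 9831 none, and 20764 were matched to the RefSeq gene table. Members, lists and comparisons were chosen with earlier results of these data known. Named are all members, the 3 genes most correlated with the brightest probe set of each, and from each list up to 4 called genes with the largest estimate or, with none, the 2 with the smallest p, beside others needed to account for a list. The correlation used the brightest probe set of each gene. Alternatives were normalization, filter, pseudocount, variance prior, exchange of 2 arrays, subsets of arrays and leaving out each array.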

Additional observations from a re-analysis of the deposited data

Results flagged for a closer look

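The brightest probe sets of the 3 fast myosins were singled out because every restricted array lay above the control at 1 week and below the control at 1 month. The difference between the durations in the restricted against control contrast was -1.26 ± 0.17 for Myh2 (limma, adjusted p = 0.0686), -0.48 ± 0.18 for Myh4 (adjusted p = 0.59) and -0.43 ± 0.18 for Myh1 (adjusted p = 0.666), and none passed. Each duration has 1 control array, and the ratios of all 4 restricted arrays share it. Not all Myh1 probe sets had this pattern, and at 30% CR for 1 week 3 of 5 lay above the control. After quantile normalization the Myh4 difference was 0.00 and that of Myh2 was -1.004. This method leaves the brightest probe sets, such as Myh4, little room to differ between arrays. With the 1-week control and 5% CR arrays exchanged, the differences of Myh2 and Myh1 were -0.045 and -0.005.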

How the results depend on the processing

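Of 480 recomputed values of the brightest probe sets and the second Myh7 probe set, 420 kept their direction and their side of the threshold, 15 passed only in the alternative and 45 changed sign. Of 324 values of the other 4 Myh1 probe sets, 29 changed sign and 0 passed (lowest adjusted p = 0.0678). The fall of Myh3 with duration passed in every alternative in which it was tested (-2.00 to -0.92). With a filter at the 70th percentile it was not tested, and 0 members were called. The depth of the arrays is not known; Myh8 and the 1-month Myh3 signals are limited by their closeness to background.

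For restricted against control, 311 probe sets were called, and 77 without the trend in the variance prior, 1 with the 1-week control and 5% CR arrays exchanged, 34 in the 1-week arrays alone, where 1 member (Myh2, 0.89) was called against a single control array, and 136 in the 1-month arrays alone. With any array left out the count was 27 to 455, the lowest without the 1-week control, and 111 without the 1-month control, with 0 to 3 members. The Myh7 estimates became -0.27 and -0.25 in the exchange, Myh2 -0.35 in the exchange and -0.37 in the 1-month arrays alone, Myh4 0.085 in the 1-week arrays alone, and Myh1 0.036 (quantile), 0.014 (cyclic loess) and 0.20 (1 week alone). With an array left out, Myh1 ranged from -0.23 to 0.20, Myh2 from -0.37 to 0.89 and Myh4 from -0.39 to 0.09.

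For the dose trend, 310 were called, and 196 after median centring, 73 without the variance trend, 161 in the exchange, 39 in the 8 restricted arrays alone, 109 in the 1-week arrays alone, 6 in the 1-month arrays alone and 37 with both doubtful arrays left out. With an array left out the count was 86 to 369, the lowest without the 1-week 30% CR array, 123 without either control and 184 without the 1-week 20% CR array, with 0 to 1 members. Changed signs were small, for Myh1 (-0.017 quantile, -0.013 cyclic loess, -0.014 exchange, -0.001 with the rank of the level, -0.024 for 1 week alone, -0.005 with both arrays left out, -0.026 to 0.032 with an array left out), Myh2 (-0.016 for 1 month alone) and Myh4 (0.007 after median centring, 0.045 in the restricted arrays, -0.037 to 0.047 with an array left out).

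For duration, 1553 were called, and 5263 with signals as deposited (5088 of them lower), where the median over all probe sets was -0.29 against -0.09 after scaling, and 722 with both doubtful arrays left out. There 2 members were called as deposited (Myh3 and Myh4, -0.34) and 2 in the 8 restricted arrays alone (Myh3 and Myh2, -0.38). With an array left out the counts were 1114 to 1713 and 1 to 2. Signs changed for Myh1 (-0.18 as deposited, -0.056 in the restricted arrays, -0.026 to 0.077 with an array left out), Myh4 (0.034 quantile) and Myh7 (-0.084 as deposited, -0.32 and -0.16 in the restricted arrays, -0.13 with both arrays left out, -0.29 to 0.37 and -0.12 to 0.49 with an array left out).

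For the difference between durations, 0 were called, and 2 after quantile normalization, 1 after cyclic loess and 2 with the 70th percentile filter, among them 1 member each time, Myh2 (-1.004, -1.16 and -1.26). With an array left out the count was 0 to 26, with 0 to 3 members, the highest without the 1-week 10% CR array. In the exchange the signs changed for Myh7 (0.92 and 0.91) and Myh3 (0.069), and after quantile normalization for Myh4 (0.004). This contrast could not be fitted without a control array. With level of restriction as a block, which pairs the 1-week and 1-month arrays of each level, Myh3 was the only member called for duration. Fits to 1 duration and those with both doubtful arrays left out were chosen after the data were seen. The cause of these changes was not tested.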
